A study of Citrullus lanatus with 4 samples.

Results

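In watermelon, 66 of the 23440 genes in the count table had clearly more reads in the male fertile line DAH3615 than in the male sterile line DAH3615-MS, and yet kept a readable level in the sterile line. They were chosen from the counts themselves. A gene entered when it had at least 10 CPM (each count divided by the total of its library and multiplied by 1000000) in both the flower and the floral bud of DAH3615-MS. Its CPM + 1 had to be at least 2.5 times higher in DAH3615 than in DAH3615-MS in each organ, and its flower to floral bud ratio in DAH3615 had to lie above 1/3 and under 3. These 66 genes are called the members below. They made up 0.667% of the 9899 genes with at least 10 CPM in both DAH3615-MS libraries.

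RNA-seq was performed on 4 libraries, 1 each from the DAH3615-MS flower, the DAH3615-MS floral bud, the DAH3615 flower and the DAH3615 floral bud, so no condition had a replicate. DAH3615-MS is a genic male sterile line, homozygous for the recessive allele (msms) and derived from the ms-1 male sterile line. DAH3615 is its fertile near-isogenic line, is heterozygous (Msms), and therefore carries the same allele. Both came from 1 segregating greenhouse population, and floral buds were taken the day before flowering and flowers on the first day of flowering. The floral buds came from higher-numbered nodes of the plant than the flowers, so organ and node position cannot be told apart. The floral buds of DAH3615-MS were shorter than those of DAH3615, and its flowers had defective stamens without pollen, so line, organ size and the tissue present cannot be told apart in these libraries.

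The tapetum is the inner cell layer of the anther. It feeds the microspores, and the mature pollen grain then carries a large set of transcripts used for its wall and for pollen tube growth. Many other genes are read in pollen and also in petals, sepals or filaments. In whole organs, fewer cells of a type and less RNA per cell cannot be told apart.

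The total count on genes was between 5239032 and 6315796 per library. Among the genes described as pollen proteins, polygalacturonases or LIM domain proteins, 15 had counts. Their summed level was 84.2 CPM in flowers and 352 CPM in floral buds of DAH3615-MS, against 1722 and 1717 CPM in DAH3615. By the test described below, 5 of the 15 were called lower in DAH3615-MS and 0 higher, against 3.92% and 0.0355% of all genes tested. The median log2 ratio of DAH3615-MS over DAH3615 in the 15 was -0.40 in flowers and -1.05 in floral buds. At 0 were 5 of the genes in flowers and 2 in floral buds of DAH3615-MS, against 1 and 2 in DAH3615. The 5 chlorophyll a-b binding and photosystem genes summed to 1135 and 1082 CPM in DAH3615-MS, against 980 and 780 CPM in DAH3615, and none was at 0. The part of these differences in the levels of the members was not tested. No member (0) is in either list, but the lists were drawn from descriptions, which only 4 of the 66 members have. They say nothing of the other members.

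All 66 members had their lowest DAH3615 level above their highest DAH3615-MS level. That separation is fixed by the rule for most of them and is given as a description, beside 6.72% of the 9899 genes at 10 CPM or more in both DAH3615-MS libraries. The median member had 27.1 CPM in DAH3615-MS flowers and 21.6 CPM in DAH3615-MS floral buds, against 148 CPM in DAH3615 flowers and 122 CPM in DAH3615 floral buds. Together the members took 0.220% of the counts in DAH3615-MS flowers and 0.209% in DAH3615-MS floral buds, against 1.28% in DAH3615 flowers and 1.06% in DAH3615 floral buds. Counts of single members were between 54 and 876 in the DAH3615-MS libraries and between 211 and 5750 in the DAH3615 libraries. Counting error was therefore small beside the differences between the lines, whereas the spread between plants was not measured.

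**Figure D1:**
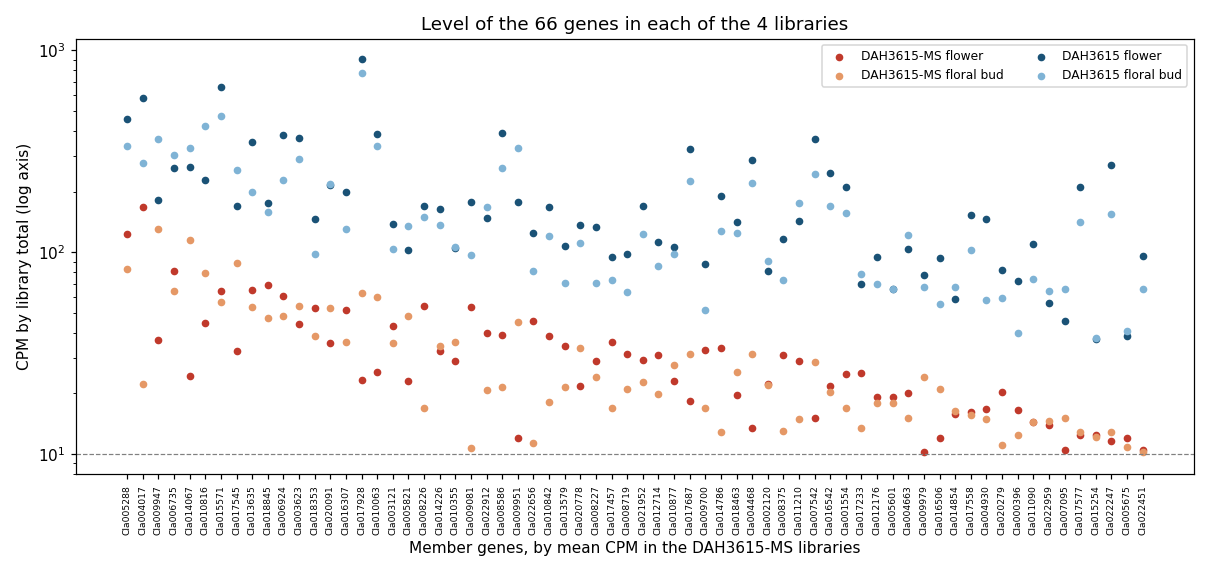
CPM of each of the 66 members in the 4 libraries on a log axis, ordered by their mean CPM in DAH3615-MS; each point is 1 library, and the dashed line marks 10 CPM. The DAH3615 points lie above the DAH3615-MS points for every member, and the 2 DAH3615-MS points of Cla004017, 167 CPM in the flower and 22.3 CPM in the floral bud, lie far apart.

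The level that remained in DAH3615-MS was expressed as a percentage of the DAH3615 level on CPM + 1, so that the rule sets an upper limit of 40%. In flowers the members kept between 2.66% and 39.5% of the DAH3615 level, with a median of 20.9%. In floral buds they kept between 8.29% and 39.9%, with a median of 22.6%. Under 10% remained for 11 members in flowers and for 6 in floral buds. Less than 20% remained in both organs for 18 members, and 20% or more in both organs for 27. The remaining share was lower in flowers than in floral buds for 37 members and higher for 29.

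Line and organ were fitted together as additive terms over all 19732 genes with counts. The quasi-likelihood test of edgeR called 65 of the 66 members lower in DAH3615-MS and 0 higher at an adjusted p threshold of 0.01, against 3.92% lower and 0.0355% higher over all genes tested. As the rule used this contrast, nothing is read from the count. The fitted log2 fold changes of DAH3615-MS over DAH3615 were between -4.56 and -1.54 with a median of -2.31, and their standard errors were between 0.18 and 0.43. The only residual of the model is the difference between the organs in the line effect, and with 1 library per condition it does not hold the spread between plants. The uncalled member was Cla014067 (log2 fold change -2.56, standard error 0.43), whose 2 organs differed most. When each library was dropped in turn and only line was fitted, 2 members were called without the DAH3615 flower or the DAH3615 floral bud, Cla017577 and Cla022247 in both cases, and 0 without the DAH3615-MS flower or the DAH3615-MS floral bud.

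**Figure D2:**
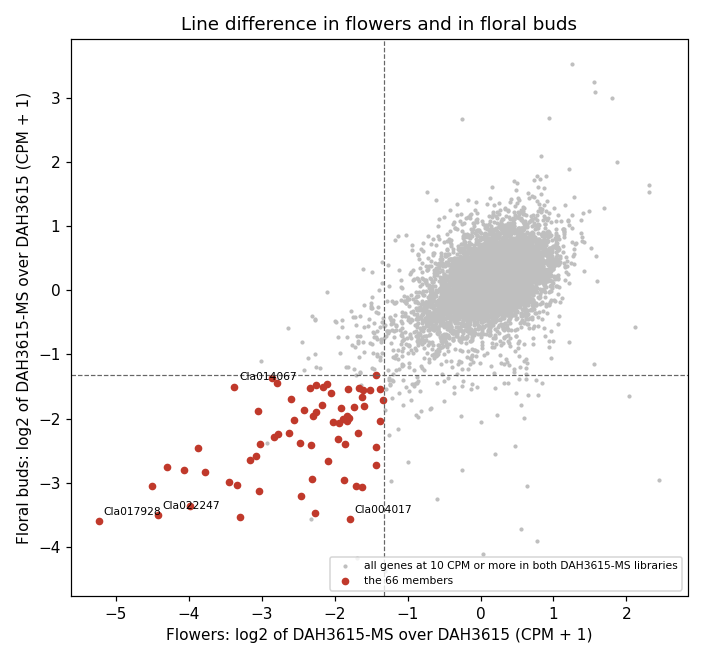
Log2 ratio of DAH3615-MS over DAH3615 on CPM + 1 in flowers (x axis) and in floral buds (y axis) for the 66 members (red) and all 9899 genes with at least 10 CPM in both DAH3615-MS libraries (grey). The dashed lines are the limits of the rule, which confine the members to the lower left; within it they spread down to -5.23 in flowers and -3.59 in floral buds.

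Of the 66 members, 4 had a description among the 1999 annotated genes at hand, which cover the lowest gene IDs only. The other 62 are given by their IDs. For each of the 4, genes with a like description were counted too. The numbers called lower among them stand beside 3.92% of all genes tested. Each number includes the member itself, which the rule chose for being lower, so nothing is read from it.

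Cla001554, described as a receptor protein kinase-like protein, lies on the minus strand of chromosome 3 from 20772577 to 20778277 in version 1 of the watermelon genome. Such kinases sit in the plasma membrane and pass on signals from outside the cell by phosphorylation. It had 24.8 CPM in flowers and 17.0 CPM in floral buds of DAH3615-MS, against 212 and 157 CPM in DAH3615. That left 12.1% of the DAH3615 level in flowers (exact 95% counting interval 9.72% to 14.1%) and 11.4% in floral buds (8.69% to 13.3%), nearly the same share in both organs. Of 49 genes described as receptor kinases, 2 were called lower in DAH3615-MS, Cla001554 and Cla002735, and 0 higher. The median log2 ratio of the 49 was 0.04 in flowers and 0.21 in floral buds.

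Cla002120, described as U-box domain-containing protein 10, lies on chromosome 2 from 15249334 to 15252671. U-box proteins are ubiquitin ligases, which mark other proteins for breakdown. It had 22.3 and 22.0 CPM in flowers and floral buds of DAH3615-MS, against 80.4 and 90.03 CPM in DAH3615. The level hardly differed between the organs of either line, and 28.7% remained in flowers and 25.2% in floral buds. Of 9 genes described as U-box proteins, 2 were called lower in DAH3615-MS, Cla002120 and Cla002716, and 0 higher.

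Cla003121, described as RING finger protein 44, lies on chromosome 2 from 34334924 to 34335973. RING finger proteins are a further family of ubiquitin ligases. It had 43.1 and 35.5 CPM in DAH3615-MS flowers and floral buds, against 139 and 104 CPM in DAH3615, so that 31.6% and 34.9% remained. It was the only one called among 10 genes described as RING finger proteins.

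Cla000396, described as the 14-3-3-like protein GF14 Epsilon, lies on chromosome 5 from 31040110 to 31042355. Proteins of this family bind phosphorylated partners and change their activity or place in the cell. It had 16.6 and 12.5 CPM in DAH3615-MS flowers and floral buds, against 71.7 and 39.8 CPM in DAH3615. The share that remained was 24.2% in flowers (exact 95% counting interval 18.2% to 29.2%) and 33.0% in floral buds (23.7% to 41.0%), and these counting intervals overlap. It was the only one called of 2 genes described as 14-3-3 proteins.

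Lists of other functions, drawn by keyword from the same descriptions, held 1 member in all. Their counts of genes called lower stand beside 3.92% of all genes tested, and none of the lists was tested as a set. Among 122 genes described as kinases 4 were called lower in DAH3615-MS and 0 higher, and 1 of the 122, Cla001554, was a member. None of the 24 genes for cell wall enzymes, the 8 for sugar transport and cleavage or the 19 for calcium signalling was a member, although 5, 4 and 2 of them were called lower in DAH3615-MS. Of the 113 genes described as transcription factors, 0 were called in either direction and 0 were members. Of 15 phenylpropanoid and flavonoid enzymes, 26 lipid and wax enzymes and 112 oxidoreductases, 1, 1 and 7 were called lower and 0 were members. Of 20 cell division genes and 2 ovule or seed genes, 0 were called and 0 were members. The lists rest on the 1999 annotated genes alone and say nothing of the 62 members without a description.

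The 12 members with the highest mean CPM in DAH3615-MS are described next. CPM is not divided by transcript length, so the order is one of reads and not of transcripts. Cla005288 on chromosome 10, from 6207325 to 6212484, led with 123 and 82.9 CPM in DAH3615-MS flowers and floral buds, against 455 and 337 CPM in DAH3615. Much the same share of the DAH3615 level remained in each organ, 27.2% in flowers and 24.8% in floral buds. Cla006735 on chromosome 6 had 80.9 and 64.0 CPM in DAH3615-MS, against 263 and 303 CPM in DAH3615. Cla018845, also on chromosome 6, had 68.7 and 47.2 CPM in DAH3615-MS, against 176 and 158 CPM in DAH3615, and with 39.5% it kept the largest share of all members in flowers.

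Others of the 12 kept a smaller share of the DAH3615 level. Cla015571 on chromosome 9, from 343393 to 348108, had 64.1 and 56.8 CPM in DAH3615-MS flowers and floral buds, against 661 and 472 CPM in DAH3615, so that 9.85% and 12.2% remained. Cla003623 on chromosome 1 had 44.3 and 54.0 CPM in DAH3615-MS, against 368 and 289 CPM in DAH3615. Cla006924 on chromosome 6 had 60.7 and 48.1 CPM in DAH3615-MS, against 381 and 229 CPM in DAH3615. These 3 genes kept under 22% in either organ. Cla013635 on chromosome 2 kept 18.7% in flowers and 27.3% in floral buds, and Cla010816 on chromosome 7 kept 19.997% and 18.8%. The remaining 4 of the 12, Cla004017, Cla009947, Cla014067 and Cla017545, had a large difference between the organs of DAH3615-MS and are described with it.

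The 6 members with the lowest share remaining, as a geometric mean over both organs, were Cla017928, Cla022247, Cla007542, Cla017577, Cla004468 and Cla017687. Cla017928, on the minus strand of chromosome 10 from 27286339 to 27291440, had the most reads of all members in DAH3615. It had 122 counts in flowers and 363 in floral buds of DAH3615-MS, against 5750 and 4330 in DAH3615. In CPM that is 23.3 and 62.8 in DAH3615-MS, against 910 and 769 in DAH3615. The share that remained was 2.66% in flowers (exact 95% counting interval 2.12% to 3.06%) and 8.29% in floral buds (7.32% to 9.09%), so both organs were far below the median member and flowers the further.

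Cla022247 on chromosome 8, from 21933909 to 21937894, had 11.6 and 12.8 CPM in DAH3615-MS flowers and floral buds, against 271 and 155 CPM in DAH3615. Cla017577 on chromosome 10 had 12.4 and 12.8 CPM in DAH3615-MS, against 211 and 142 CPM in DAH3615. Both were near the minimum of 10 CPM in DAH3615-MS and almost level between its organs. Cla007542 on chromosome 6 had 15.1 and 28.6 CPM in DAH3615-MS, against 364 and 244 CPM in DAH3615. Cla004468 on chromosome 10 had 13.6 and 31.5 CPM in DAH3615-MS, against 287 and 219 CPM in DAH3615. Cla017687 on chromosome 10 had 18.3 and 31.5 CPM in DAH3615-MS, against 324 and 225 CPM in DAH3615. In these last 3 genes DAH3615-MS was lower in flowers than in floral buds, while DAH3615 was higher in flowers.

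At the other end, the 6 members that kept the largest share were Cla018353, Cla009700, Cla018845, Cla015254, Cla008719 and the RING finger gene Cla003121. Cla018353 on chromosome 4, from 21171749 to 21176612, kept 37.1% in flowers and 39.9% in floral buds, with 53.3 and 38.4 CPM in DAH3615-MS, against 145 and 97.8 CPM in DAH3615. Cla015254 on chromosome 9 had 12.4 and 12.1 CPM in DAH3615-MS, against 37.2 and 37.5 CPM in DAH3615. Its 4 values showed a line difference and no visible organ difference. Cla008719 on chromosome 2 had 31.3 and 20.9 CPM in DAH3615-MS, against 98.0 and 63.8 CPM in DAH3615, and was about 1.5-fold higher in flowers in both lines.

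The ratio of flower to floral bud in DAH3615-MS was not itself a criterion of the rule. The rule limits it all the same, through the minimum in both DAH3615-MS libraries, the line ratios and the bound on DAH3615, so it is given as a description of 1 flower library and 1 floral bud library. On CPM + 1 it was above 1 for 41 members and below 1 for 25, and the median log2 ratio was 0.11. It was 2-fold or more higher in flowers for 8 members, or 12.1%, against 10.2% of the 9899 genes with at least 10 CPM in both DAH3615-MS libraries. It was 2-fold or more lower for 9 members, or 13.6%, against 11.4% of those genes. Over all 19732 genes with counts the shares were 10.7% and 13.3%. The background genes were not bounded in their DAH3615 organ ratio, so these shares are not a like-for-like comparison and nothing is read from them. By counting error alone, the exact 95% interval of the ratio lay above 1 for 27 members, below 1 for 18 and held 1 for 21. In DAH3615, where the rule bounds the ratio, 46 members were higher in flowers and 20 lower. A further 630 genes met the same line and organ ratios with under 10 CPM in a DAH3615-MS library. Of these, 421 were higher and 209 lower in flowers of DAH3615, against 4770 and 5129 of the 9899 genes. In DAH3615-MS the numbers were 230 and 257, against 4854 and 5045.

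Of the members 2-fold or more higher in DAH3615-MS flowers than in its floral buds, Cla004017 had the widest difference. It lies on the minus strand of chromosome 7 from 3791250 to 3794428. It had 167 CPM in flowers and 22.3 CPM in floral buds of DAH3615-MS, against 581 and 277 CPM in DAH3615. On CPM + 1 the ratio was 7.21 in DAH3615-MS and 2.10 in DAH3615. The exact 95% counting intervals, taken without the added 1, were 6.22 to 9.08 and 1.98 to 2.23. Both lines were higher in flowers, DAH3615-MS by more, and the share that remained was 28.9% in flowers and 8.40% in floral buds.

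Cla009081 on chromosome 1, from 22099269 to 22101609, had 53.8 and 10.7 CPM in DAH3615-MS flowers and floral buds, against 177 and 96.4 CPM in DAH3615. Cla022656 on chromosome 8, from 25456800 to 25459304, had 45.4 and 11.4 CPM in DAH3615-MS, against 124 and 80.8 CPM in DAH3615. Cla014786 on chromosome 9 had 33.6 and 12.8 CPM in DAH3615-MS, against 190 and 127 CPM in DAH3615. All 3 genes were higher in flowers in both lines, with the wider ratio in DAH3615-MS. The other members past 2-fold in this direction were Cla008226, Cla008375, Cla010842 and Cla017457, with ratios in DAH3615-MS of 3.06, 2.30, 2.06 and 2.05.

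The largest ratio in the other direction was that of Cla014067, on the minus strand of chromosome 1 from 27861300 to 27863818. It had 24.4 CPM in flowers and 115 CPM in floral buds of DAH3615-MS, against 263 and 328 CPM in DAH3615. The DAH3615-MS flower held 0.219 of the level of its floral bud, and the DAH3615 flower 0.804. As a result 9.63% of the DAH3615 level remained in flowers (exact 95% counting interval 7.70% to 11.1%) and 35.3% in floral buds (32.1% to 38.4%), and these intervals are far apart.

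Cla009947 and Cla009951 lie on the minus strand of chromosome 5, from 33318001 to 33320388 and from 33285839 to 33286418, with 3 annotated genes between them. Cla009947 had 36.8 and 131 CPM in DAH3615-MS flowers and floral buds, against 181 and 365 CPM in DAH3615. Cla009951 had 12.03 and 45.2 CPM in DAH3615-MS, against 177 and 329 CPM in DAH3615. Both were lower in flowers in both lines, by about the same ratio, 0.287 and 0.282 in DAH3615-MS, against 0.497 and 0.540 in DAH3615. Cla017545 on chromosome 10 had the same order, with 32.4 and 88.4 CPM in DAH3615-MS, against 169 and 256 CPM in DAH3615. Cla017928, Cla010063, Cla004468, Cla009979 and Cla005821 were also past 2-fold lower in DAH3615-MS flowers, with ratios of 0.381, 0.433, 0.448, 0.451 and 0.489.

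**Figure D3:**
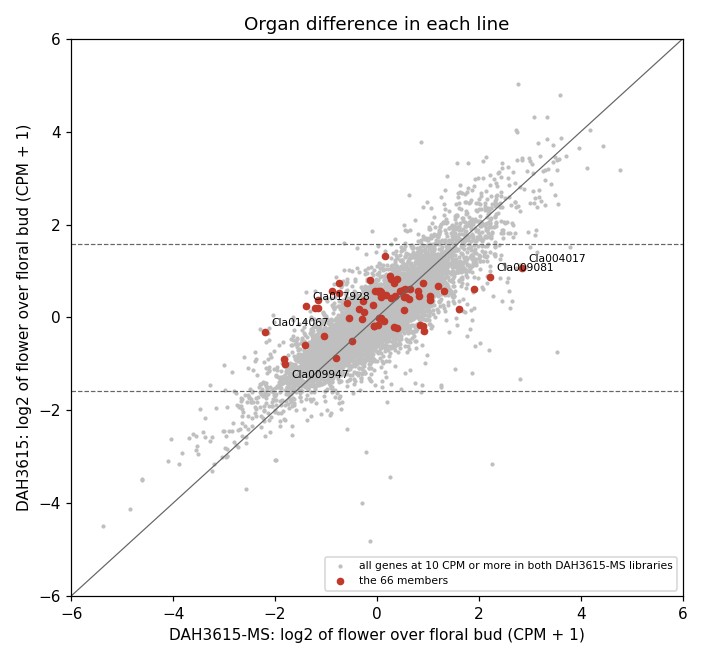
Log2 ratio of flower over floral bud on CPM + 1 in DAH3615-MS (x axis) and in DAH3615 (y axis) for the 66 members (red) and all 9899 genes with at least 10 CPM in both DAH3615-MS libraries (grey). The dashed lines are the bounds of the rule on the DAH3615 ratio and the solid line marks equal ratios; along the x axis the members run from -2.19 for Cla014067 to 2.85 for Cla004017.

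In the additive fit, the quasi-likelihood test called 2 members higher and 1 lower in flowers than in floral buds, or 3.03% and 1.52%, against 7.59% and 7.58% of all genes tested. The bound on the organ ratio in DAH3615 limits these counts, so they are not compared further. The genes called were Cla004017 (log2 fold change 1.98 ± 0.40 SE, edgeR adjusted p = 0.00944), Cla009700 (0.89 ± 0.18 SE, adjusted p = 0.00965) and Cla009947 (-1.36 ± 0.24 SE, adjusted p = 0.00542). The newer form of the test called none of the 3 genes, and 0 members were called when any library was dropped and only organ was fitted.

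The difference between the organs in the line effect is the log2 ratio of DAH3615-MS over DAH3615 in flowers minus that in floral buds. It has no residual degree of freedom here and no test. Its median over the members was -0.13. It was 1 or more for 7 members, or 10.6%, and -1 or less for 9, or 13.6%, against 1.63% and 1.81% of the 9899 genes with at least 10 CPM in both DAH3615-MS libraries and 4.38% and 4.35% of all 19732 genes with counts. The same line and organ ratios, with under 10 CPM in a DAH3615-MS library, were met by 630 genes. Of these, 49 were at 1 or more and 96 at -1 or less, so such values were not particular to the members. Both ratios that enter the difference were used by the rule, so the shares of the members are a description. The smallest values were those of Cla014067 (-1.88, counting standard error 0.15), Cla017928 (-1.64, 0.15), Cla004468 (-1.54, 0.21) and Cla016506 (-1.50, 0.25), which kept less in flowers than in floral buds. The largest were those of Cla004017 (1.78, counting standard error 0.14), Cla008226 (1.44, 0.18), Cla009081 (1.35, 0.22) and Cla022656 (1.29, 0.22), which kept less in floral buds. Cla016506 on chromosome 11 illustrates a change of order, with 12.03 and 20.9 CPM in DAH3615-MS flowers and floral buds, against 93.7 and 55.4 CPM in DAH3615. Across the 66 members, both lines were higher in flowers for 32 and both lower for 11, while DAH3615-MS was lower and DAH3615 higher in flowers for 14 and the reverse held for 9.

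The members lay on chromosomes 1 to 11. Chromosome 10 held 11 of them, or 16.7%, against 9.53% of the genes with at least 10 CPM in both DAH3615-MS libraries, and chromosome 5 held 7, or 10.6%, against 12.9%. No test of these shares was made. The plus strand held 34 members. The median gene span, from start to end with introns, was 2940 bp in the members, and it was 3270 bp in the 9899 genes with at least 10 CPM in both DAH3615-MS libraries and 1827 bp in the 630 genes that met the same line and organ ratios with under 10 CPM in a DAH3615-MS library. As CPM is not divided by length, the minimum of 10 CPM can favour longer genes, so nothing is read from these spans.

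**Figure D4:**
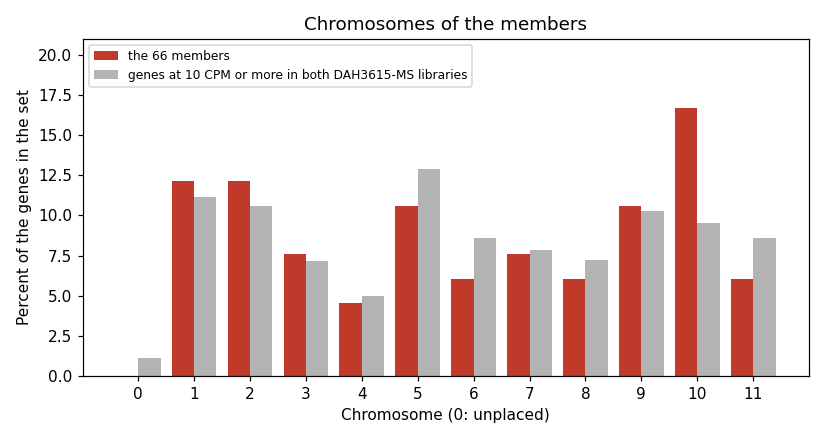
Share of the 66 members (red) and of the 9899 genes with at least 10 CPM in both DAH3615-MS libraries (grey) on each chromosome, in percent of each set; chromosome 0 collects unplaced sequence. Chromosome 10 holds 16.7% of the members and 9.53% of the other set, and chromosome 0 holds 0 members.

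The gene on each side of a member was examined next, since neighbours were not used by the rule. Only 1 pair of members was adjacent. Cla008226 lies on the plus strand of chromosome 3 from 1260039 to 1261610, and Cla008227 follows on the same strand from 1265172 to 1267103, with 3561 bp between them. Cla008226 had 54.0 and 17.0 CPM in flowers and floral buds of DAH3615-MS, against 169 and 150 CPM in DAH3615. Cla008227 had 28.8 and 24.1 CPM in DAH3615-MS, against 133 and 70.7 CPM in DAH3615. The pair differed in its organs, as Cla008226 kept 32.3% in flowers and 11.9% in floral buds, and Cla008227 kept 22.3% and 35.0%. Whether the genes share reads was not determined.

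Among the 118 flanking genes that had counts and were not members, 9 were called lower in DAH3615-MS, or 7.63%, against 3.92% of all genes tested, and 0 were called higher. The median log2 ratio of DAH3615-MS over DAH3615 in the 118 genes was 0.07 in flowers and 0.05 in floral buds. Most neighbours therefore did not share the line difference. Among the 9 that were called, Cla016541 lies 192 bp before Cla016542, and whether they share reads was not determined. Cla016541 had 39 and 29 counts in DAH3615-MS flowers and floral buds, against 526 and 361 in DAH3615. Cla015255, before Cla015254, had 26 and 29 counts in DAH3615-MS, against 1611 and 971 in DAH3615. Both neighbours of Cla013579, Cla013580 and Cla013578, were called as well. The others were Cla004016, Cla009948, Cla010356, Cla012177 and Cla018352. For the RING finger gene Cla003121, the gene before it (Cla003122) had 787 and 1674 counts in DAH3615-MS flowers and floral buds, against 1194 and 1739 in DAH3615, and the gene after it (Cla003120) had between 11 and 23 counts per library. For the receptor kinase gene Cla001554 and the U-box gene Cla002120, the genes on both sides had 0 counts in all libraries.

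The 66 members were 9.48% of the 696 genes that met the same line and organ ratios at any DAH3615-MS level. In the other 630 genes the median level was 0.382 CPM in flowers and 0.433 CPM in floral buds of DAH3615-MS, against 43.3 and 35.9 CPM in DAH3615. Of these, 143 had 0 counts in both DAH3615-MS libraries. The members were higher in DAH3615 too, with medians of 148 and 122 CPM. As the minimum of 10 CPM in DAH3615-MS requires a higher DAH3615 level, that difference follows from the rule. The rule found 66 genes, against 0 with the lines exchanged. With a ratio of 2 in place of 2.5 it found 113 genes, against 4 with the lines exchanged. With a ratio of 1.5 it found 256, against 222. These counts use CPM by library totals. On that scale the median log2 ratio of DAH3615-MS over DAH3615 in the 9899 background genes was 0.18 in flowers and 0.19 in floral buds. TMM factors shift these ratios by -0.14 and -0.13. With TMM factors the exchanged rule was run at 2.5 alone, where it found 0 genes. How far the imbalance depends on the ratio chosen, apart from scaling, was not determined.

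The thresholds cut through a continuous range of values. At the minimum of 10 CPM, Cla022451 (10.2 CPM in its lower DAH3615-MS library), Cla009979 (10.3) and Cla007095 (10.5) were just inside, and Cla021134 (9.93), Cla015861 (9.86) and Cla011216 (9.52) just outside. At the ratio of 2.5, Cla018353 (2.51 in its lower organ), Cla018845 (2.53) and Cla016506 (2.57) were inside and Cla019664 (2.4986), Cla012974 (2.48) and Cla013609 (2.47) outside. The bound of 3 on the organ ratio in DAH3615 left out 4 genes, of which Cla021674 (3.07), Cla012645 (3.25) and Cla009057 (3.68) came nearest, and the members nearest to it were Cla004930 (2.52), Cla004017 (2.10) and Cla009947 (2.01).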

How the data were processed

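Reads were cleaned by the authors with Trimmomatic, mapped with TopHat2 (using Bowtie2) on version 1 of the watermelon reference genome, and assigned to annotated genes with HTSeq. The deposited table holds raw counts for each gene beside its coordinates. Tool versions and the strand setting of the counting are not given in the sources used here.

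CPM was computed from library totals. Of 23440 genes, the 19732 with at least 1 count were tested, and all 66 members were among them. Counts were scaled by TMM (factors between 0.935 and 1.06), and line and organ were fitted as additive terms in edgeR 4.0.16 (quasi-likelihood test with 1 residual and 6.43 prior degrees of freedom) in R 4.3.3, with Benjamini-Hochberg adjustment over all genes and a threshold of 0.01. Each standard error was derived from the log2 fold change and its F statistic. The fit was tested on simulated counts with line effects drawn in both directions and no line-by-organ difference. The data differ in both respects, so nothing about them is read from that test. Ratios of 2 libraries have exact conditional 95% intervals that cover counting error only. The intervals use counts and library totals without the added 1, so they are not centred on the ratios and remaining shares, which are on CPM + 1. Summaries used Python 3.11.15, pandas 2.3.3, numpy 2.4.6 and scipy 1.17.1. Alternatives were other size factors, the likelihood ratio test, the newer quasi-likelihood form, DESeq2 1.42.0, limma-voom (limma 3.58.1), a count filter, other thresholds and the exclusion of each library.

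The members, lists and tests were chosen with earlier results of these data known. Genes named are the extremes of DAH3615-MS level, remaining share, organ ratio and line-by-organ difference, those with a description, adjacent members and the genes at each threshold. Descriptions came from 1999 rows of a supplementary table, whose columns of the authors' adjusted p-values were not used. Flanking genes and the receptor kinase, U-box, RING finger and 14-3-3 families were added after the values were seen. No sequences were used here.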

Additional observations from a re-analysis of the deposited data

Results flagged for a closer look

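In 9 members the organ difference ran in opposite directions in the lines, each beyond the 95% counting interval, and the line effect differed between organs by 1 or more on the log2 scale. With 1 library per condition none of these differences was tested. In 7 of them DAH3615-MS was lower and DAH3615 higher in flowers than in floral buds. Their difference in log2 ratio was -1.64 for Cla017928, -1.54 for Cla004468, -1.50 for Cla016506, -1.46 for Cla007542, -1.41 for Cla010063, -1.35 for Cla009979 and -1.28 for Cla017687. In Cla010063, for example, the log2 ratio of flower over floral bud was -1.21 in DAH3615-MS and 0.21 in DAH3615. In the other 2 members DAH3615-MS was higher and DAH3615 lower in flowers, with a difference of 1.20 for Cla011210 and 1.08 for Cla022912. Cla011210 on chromosome 3 had 29.0 and 14.9 CPM in DAH3615-MS flowers and floral buds, against 144 and 175 CPM in DAH3615.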

How the results depend on the processing

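No paired analysis was possible because each condition has 1 library and the labels give no replicate numbers. All 66 members stayed lower in DAH3615-MS in every setting. The rule chose them for this difference in these same libraries, so nothing is read from that or from the numbers called. The number called was 66 with library totals, DESeq2 size factors, the likelihood ratio test, DESeq2, limma-voom, a mean count of at least 10 or a threshold of 0.05, and 51 with the newer quasi-likelihood form. Leaving out 1 library gave between 0 and 2 calls. For the organ effect, calls lower and higher in flowers were 4 and 15 at a threshold of 0.05, 3 and 2 with library totals or DESeq2, 2 and 4 with DESeq2 size factors or the count filter, 4 and 8 with the likelihood ratio test or limma-voom, and 0 and 0 with the newer form or without any 1 library, with the lowest and highest both 0. Leaving out 1 library, the value for the organ effect, log2 fold change of Cla009700, was between -0.079 (reversed, without the DAH3615 flower) and 1.97 (without the DAH3615 floral bud), in a fit that has no line term. TMM factors lowered the median log2 ratio of DAH3615-MS over DAH3615 by 0.14 in flowers and 0.13 in floral buds (shifts of -0.14 and -0.13), and the rule then found 84 genes, 64 of them members. It found 113 genes at a line ratio of 2, 115 at a minimum of 5 CPM and 31 at 20 CPM. The organ change in DAH3615-MS passed 1.5-fold in 16 members upward and 14 downward and 3-fold in 4 and 3. The line-by-organ difference passed 1.5-fold in 10 members upward and 18 downward, and 3-fold in 1 upward and 2 downward.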

Other observations

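Of the 6 members with the lowest share remaining in DAH3615-MS, 4 lie on chromosome 10, which was noticed after the values were seen. They are Cla004468 (from 4446975 to 4450551), Cla017577 (from 24140446 to 24144071), Cla017687 (from 25238031 to 25241433) and Cla017928 (from 27286339 to 27291440), and kept between 4.70% and 9.24% of the DAH3615 level as a geometric mean over both organs. The chromosome holds 11 of the 66 members, or 16.7%, and no test of this placement was made. Of the others there, Cla005288 kept 27.2% in flowers and 24.8% in floral buds. As geometric means, Cla017558 kept 13.4%, Cla017233 26.1%, Cla017545 26.2%, Cla005601 29.2%, and Cla017457 and Cla005675 30.7% each.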
